A study of Mus musculus with 7 samples.

Results

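The tumor suppressor p53 (gene Trp53), its inhibitors Mdm2 and Mdm4, and 7 p53 target genes (Ccng1, Sesn1, Sesn2, Btg2, Trp53inp1, Zmat3 and Phlda3) were followed in primary neurospheres from the adult mouse hippocampus. These 10 genes were taken by symbol from the 24346 gene symbols of the expression table, and all 10 were among the 14151 genes that passed a filter on low values. Neurospheres are floating clusters grown from neural stem cells (NSCs), and each of the 7 libraries came from the neurospheres of a single mouse. The Med23 CKO group (mice KO_117, KO_214 and KO_218) had the genotype Nestin-CreER:Med23 flox/flox, in which tamoxifen activates the Cre recombinase in Nestin-expressing cells and removes several exons of Med23, a subunit of the Mediator complex that links transcription factors to RNA polymerase II. The control group (mice WT_215, WT_116, WT_213 and WT_220) is labelled wild type, and the methods describe controls as littermates with the genotypes Med23 flox/+ or Med23 flox/flox. All mice were C57/BL6, 2 months old by their labels, and received 200 mg/kg tamoxifen by mouth each day for 5 days, although the methods place this treatment at a younger age for mice used in culture. The comparison asks whether the p53 genes differ between neurospheres of Med23 CKO and control mice. Since each mouse gave 1 culture and 1 library, p-values measure biological and technical spread between these libraries together.

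The p53 protein is a transcription factor that is stabilized by DNA damage and other stress, and it then activates genes that halt the cell cycle, repair damage or start cell death. Mdm2 binds p53 and marks it for degradation, while p53 in turn activates Mdm2, so the pair forms a negative feedback loop. Because p53 is controlled mostly at the level of the protein, the mRNA of its targets reports on its activity more directly than the mRNA of Trp53 itself. In the adult brain, p53 is known to restrain the self-renewal of neural stem cells.

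A p53 site consists of a pair of half-sites of 10 bases each. The promoter windows of RefSeq (GRCm38.p6, which has the coordinates of mm10), from 250 bases before to 50 bases after each transcription start, were searched for it on both strands. Windows were found for 8 of the 10 genes, 10 windows in all, and none for Zmat3 and Trp53inp1. Pairs with bases between the half-sites, and sites outside these windows, were not searched for. A window without a match is thus no evidence that a gene lacks a p53 site. The window of Ccng1 is shown first because it was the only one of the 10 that held a pair of adjacent half-sites, here with 1 mismatch where 2 were allowed, a match found in 0.326% of all 32851 windows. The stretch is chr11:40755432-40755511 on the reverse strand, the capitals mark the 20 bases of the pair at chr11:40755462-40755481, and they lie 195 to 176 bases before the start.
Ccng1: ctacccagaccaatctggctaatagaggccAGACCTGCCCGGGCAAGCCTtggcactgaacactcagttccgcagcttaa

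Single half-sites without mismatch, in capitals below, are shown for 3 further genes so that they can be set beside the levels of these genes. Such a half-site occurs in 8.36% of all windows. The stretch of Mdm2 is chr10:117710920-117710959 on the reverse strand, with the half-site 186 to 177 bases before the start. That of Trp53 is chr11:69580269-69580308 on the forward strand, with the half-site 75 to 66 bases before the start. That of Sesn1, in the window of its second start, is chr10:41887251-41887290 on the forward strand, with the half-site 173 to 164 bases before the start. These are matches of letters only, and binding of p53 was not measured.
Mdm2: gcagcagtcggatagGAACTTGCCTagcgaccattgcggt
Trp53: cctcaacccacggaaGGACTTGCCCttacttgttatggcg
Sesn1: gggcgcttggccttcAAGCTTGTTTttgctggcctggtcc

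Levels are given as FPKM, fragments normalized to transcript length and to the mapped fragments of the library, as the authors calculated them with Cuffdiff. Med23 itself read 11.4, 10.3, 12.9 and 10.1 FPKM in WT_215, WT_116, WT_213 and WT_220, against 9.97, 9.27 and 8.12 FPKM in KO_117, KO_214 and KO_218. The 3 Med23 CKO libraries lay below the 4 control libraries, with a mean difference of -0.26 on the log2(FPKM + 1) scale (SE 0.18, exact permutation p = 0.0571), and these FPKM cover the whole gene, undeleted exons included. The libraries had 16841 to 18113 genes above 0, correlated with each other at r = 0.788 to 0.979, and did not let whole fragments be recovered, so their depth is unknown. They differed widely in cell cycle genes, of which the mean log2(FPKM + 1) over 20 genes was 2.89 in KO_214, 3.84 in WT_116, 4.66 in KO_218, 4.67 in WT_213, 5.73 in WT_215, 5.87 in WT_220 and 6.24 in KO_117. The 2 most distant libraries were thus both Med23 CKO. KO_214 also stood apart in the sum of 10 microglia and macrophage markers, at 439 FPKM. This sum was 17.5 to 93.3 FPKM in control libraries and 18.5 to 75.4 in the other Med23 CKO libraries. Cd68 alone gave 258.9 FPKM of the sum in KO_214. KO_214 was the highest library for every marker of the list except Cx3cr1 and P2ry12. Cx3cr1 read 0.1572 FPKM in KO_214, below 0.5521 in WT_116, 0.7825 in WT_213 and 0.7223 in KO_218. P2ry12 read 1.239 FPKM in KO_214, below 1.597 in WT_116. Of the 9 markers tested in that list, 9 had a higher mean log2 level in Med23 CKO, as did 6196 of all 14151 genes tested. Of these markers 0 passed an unadjusted limma p of 0.05. None of these markers was at 0 in any library, and their part in the values below was not tested. Markers of neural stem cells and astrocytes were present in every library. Their sum was 1879 to 3803 FPKM in control and 2060 to 3804 in Med23 CKO. Vim and Fabp7 made up most of each sum, with 1073 and 463 FPKM in WT_116. Single markers varied more unevenly, from 2.39-fold (Vim) to 24.2-fold (Hes5) between the lowest and highest library. Hes5 read 0.278 FPKM in WT_116, and Gfap ran from 17.8 FPKM in WT_220 to 321 in KO_214. In such bulk samples, fewer cells of a type and less RNA per cell cannot be told apart.

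No difference between Med23 CKO and control was detected for Trp53 or its 2 inhibitors. Trp53 (chr11:69580348-69591873, forward strand) read 68.3, 46.9, 48.2 and 86.1 FPKM in WT_215, WT_116, WT_213 and WT_220, against 82.6, 57.8 and 40.3 FPKM in KO_117, KO_214 and KO_218. The groups overlapped over most of their range, the highest library being WT_220 and the lowest KO_218. The difference in mean log2(FPKM + 1) was -0.06 (SE 0.31, 95% interval -0.79 to 0.66), an interval that runs from a 0.578-fold to a 1.58-fold level. An exact permutation test over the 35 ways to assign 7 libraries to groups of 4 and 3, two-sided and unable to go below 0.0286, gave p = 0.914.

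Mdm2 (chr10:117688875-117710758, reverse strand), the ubiquitin ligase that targets p53, read 67.2, 187, 139 and 40.5 FPKM in WT_215, WT_116, WT_213 and WT_220, against 33.99, 177 and 118 FPKM in KO_117, KO_214 and KO_218. Both groups held low and high libraries, so the range within control alone was 4.61-fold and that within Med23 CKO was 5.19-fold. The difference was -0.04 (SE 0.69, 95% interval -1.65 to 1.57, exact permutation p = 0.971), an interval that runs from a 0.318-fold to a 2.97-fold level. Mdm4 (chr1:132986105-133030587, reverse strand), a relative of Mdm2 that blocks the activating domain of p53, read 28.6, 22.6, 27.8 and 23.1 FPKM in WT_215, WT_116, WT_213 and WT_220, against 28.1, 19.4 and 28.1 FPKM in KO_117, KO_214 and KO_218. It varied little, at 25.5 ± 3.12 FPKM over the 4 control libraries and 25.2 ± 5.01 FPKM over the 3 Med23 CKO libraries (SD), with KO_214 the lowest. The difference was -0.03 (SE 0.20, 95% interval -0.49 to 0.43, exact permutation p = 0.914).

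**Figure D1:**
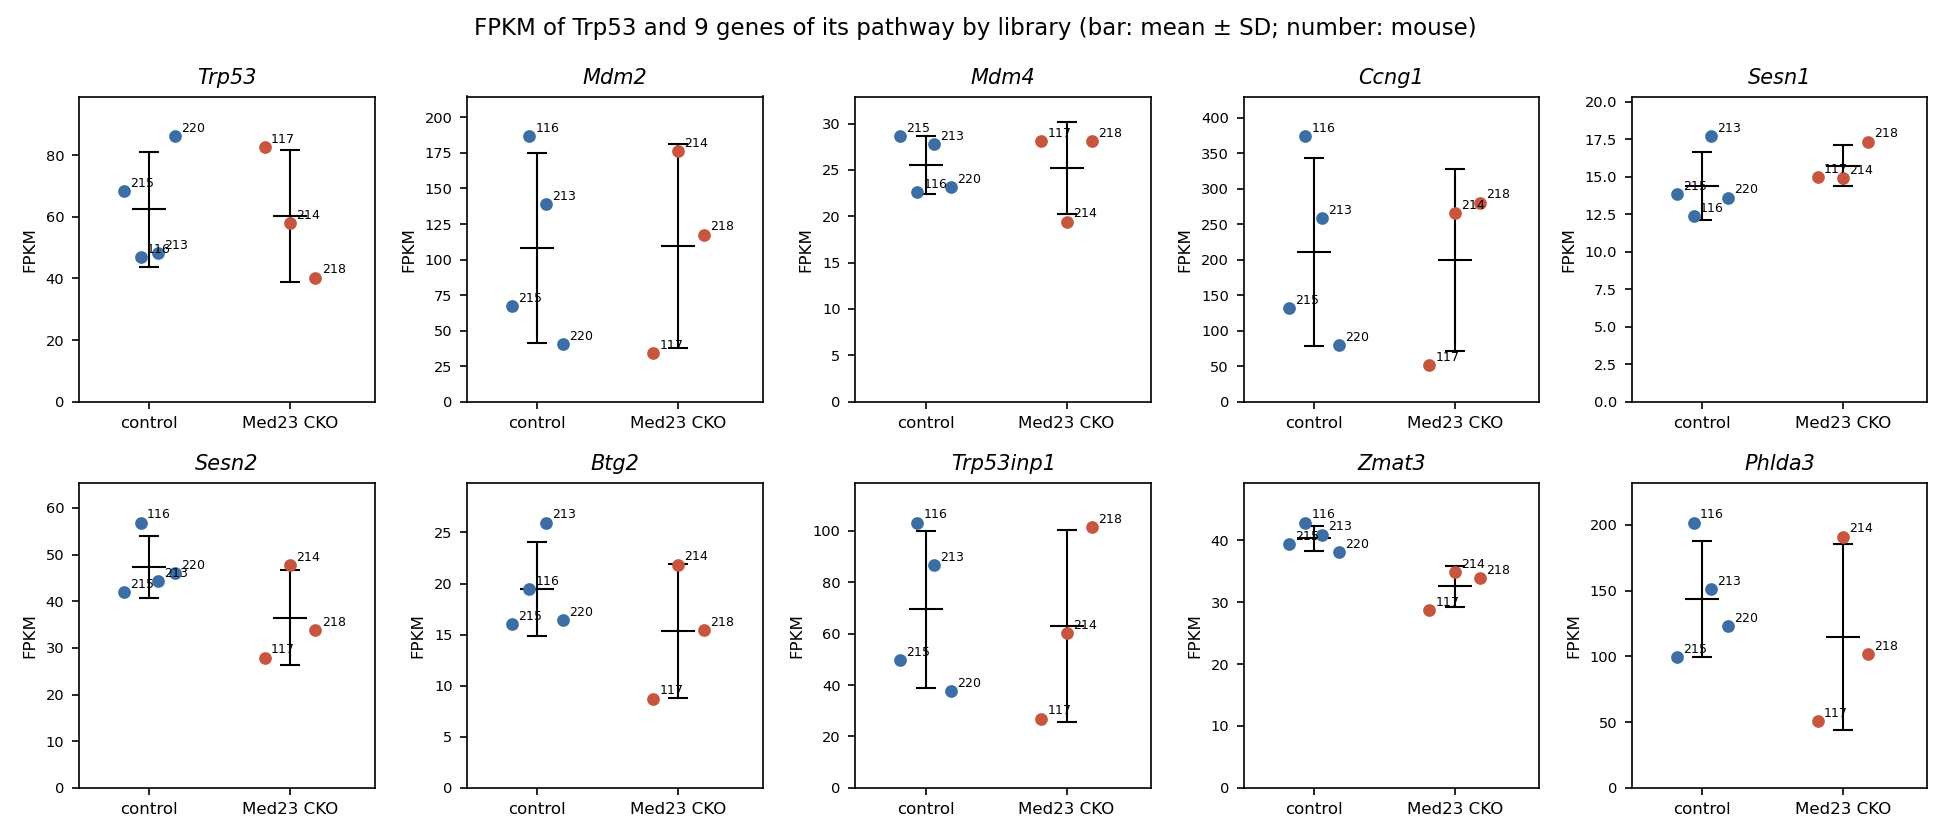
FPKM (vertical axes, from 0) of the 10 genes in the 4 control (blue) and 3 Med23 CKO (red) libraries, each point labelled with its mouse number and bars giving mean ± SD. Mdm2 and Ccng1 ranged 4.61-fold to 5.46-fold within each group, whereas Zmat3 was the only gene with its 3 Med23 CKO values (28.7 to 34.9 FPKM) below its 4 control values (38.1 to 42.8 FPKM).

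Of the targets that act on the cell cycle and growth, none passed the test. Ccng1 (chr11:40748552-40755309, reverse strand), which encodes cyclin G1 and is a classical p53 target, read 132, 374, 259 and 79.9 FPKM in WT_215, WT_116, WT_213 and WT_220, against 51.4, 266 and 280.5 FPKM in KO_117, KO_214 and KO_218. It ranged 7.28-fold from KO_117 to WT_116, the widest range of the 10 genes, and 93.6% of all genes tested had a smaller range. The difference between groups was -0.19 (SE 0.74, 95% interval -1.90 to 1.53, exact permutation p = 0.8).

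Btg2 (chr1:134074865-134079155, reverse strand), an antiproliferative factor that is also a known mark of neural progenitors about to generate neurons, read 16, 19.5, 25.97 and 16.4 FPKM in WT_215, WT_116, WT_213 and WT_220, against 8.74, 21.9 and 15.4 FPKM in KO_117, KO_214 and KO_218. KO_117 was the lowest library and KO_214 the second highest, so the groups overlapped, with a difference of -0.38 (SE 0.32, 95% interval -1.13 to 0.36, exact permutation p = 0.371). Phlda3 (chr1:135766085-135769134, forward strand), which competes with the growth kinase Akt for membrane lipids, read 99.6, 202, 151 and 123 FPKM in WT_215, WT_116, WT_213 and WT_220, against 51.1, 191 and 102 FPKM in KO_117, KO_214 and KO_218. Med23 CKO libraries lay at the bottom (KO_117) and near the top (KO_214) of the 7, and the difference of -0.47 (SE 0.45, 95% interval -1.51 to 0.57, exact permutation p = 0.429) was the largest of the 10 in size.

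The sestrins Sesn1 and Sesn2 are stress-induced proteins that lower mTORC1 activity and protect from oxidants. Sesn1 (chr10:41810574-41908436, forward strand) read 13.8, 12.4, 17.7 and 13.6 FPKM in WT_215, WT_116, WT_213 and WT_220, against 14.98, 14.9 and 17.4 FPKM in KO_117, KO_214 and KO_218. It was the only gene of the 10 whose mean log2(FPKM + 1) was higher in Med23 CKO, by 0.13 (SE 0.18, 95% interval -0.29 to 0.55, exact permutation p = 0.343), and its groups overlapped. Sesn2 (chr4:132492804-132510456, reverse strand) read 42.0, 56.9, 44.4 and 46.0 FPKM in WT_215, WT_116, WT_213 and WT_220, against 27.9, 47.7 and 33.9 FPKM in KO_117, KO_214 and KO_218. KO_117 and KO_218 lay below every control library and KO_214 above 3 of the 4, which gave a difference of -0.39 (SE 0.22, 95% interval -0.90 to 0.12, limma p = 0.114, exact permutation p = 0.171).

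Of the remaining targets, Trp53inp1 varied widely between libraries and Zmat3 varied little. Trp53inp1 (chr4:11156441-11174379, forward strand), whose protein promotes phosphorylation of p53 and autophagy, read 49.8, 103, 86.8 and 37.8 FPKM in WT_215, WT_116, WT_213 and WT_220, against 26.9, 60.1 and 101 FPKM in KO_117, KO_214 and KO_218. Its lowest and second highest libraries were both Med23 CKO, and the difference was -0.22 (SE 0.51, 95% interval -1.41 to 0.97, exact permutation p = 0.743). Zmat3 (chr3:32334792-32365665, reverse strand), an RNA-binding zinc finger protein that regulates splicing, read 39.4, 42.8, 40.9 and 38.1 FPKM in WT_215, WT_116, WT_213 and WT_220, against 28.7, 34.9 and 33.9 FPKM in KO_117, KO_214 and KO_218.

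The 3 Med23 CKO values of Zmat3 all lay below the 4 control values, at 32.5 ± 3.32 FPKM (SD, n = 3) against 40.3 ± 2.02 FPKM (SD, n = 4). The difference was -0.31 (SE 0.15, 95% interval -0.65 to 0.04), a 0.809-fold level. The exact permutation p of 0.0286 is the smallest that 4 against 3 libraries can give, while limma, which borrows the spread of other genes, gave p = 0.0748 unadjusted. In all genes tested the groups were separated downward in 1.53% and upward in 0.784%, against 1 and 0 of the 10 p53 genes, and no test was made of this count. With single libraries left out, its differences ran from -0.36 to -0.22. Since the groups did not overlap, leaving out 1 library could not turn the direction.

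Over the 10 genes, 9 had a lower mean log2 level in Med23 CKO, where 56.2% of all genes tested did, and the median difference was -0.20 against -0.03 for all genes. Adjusted for all 14151 genes by Benjamini-Hochberg, limma called 0% of genes higher and 0% lower, and the adjusted p of each of the 10 genes was 0.9999. At an unadjusted p under 0.05, limma called 0.502% of genes higher (71) and 0.996% lower (141), with 0 of the 10 p53 genes in either direction. The direction of 4 of the 10 genes depended on mouse KO_117. Without it the median difference of the 10 was -0.02, and 5 of them were higher on average in Med23 CKO. The differences of Mdm2, Ccng1, Trp53inp1 and Phlda3 became 0.64, 0.61, 0.28 and 0.01. Other mice turned directions too. Without WT_116, 4 of the 10 were higher on average, with Mdm2, Ccng1 and Trp53inp1 at 0.30, 0.17 and 0.005. Trp53 was at 0.10 without WT_220 and at 0.19 without KO_218. Without KO_214, 2 of the 10 were lower at an unadjusted limma p under 0.05, Sesn2 at -0.60 and Phlda3 at -0.93. Both had a limma adjusted p of 0.9998. At that unadjusted threshold the same fit called 206 of all genes lower and 78 higher.

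**Figure D2:**
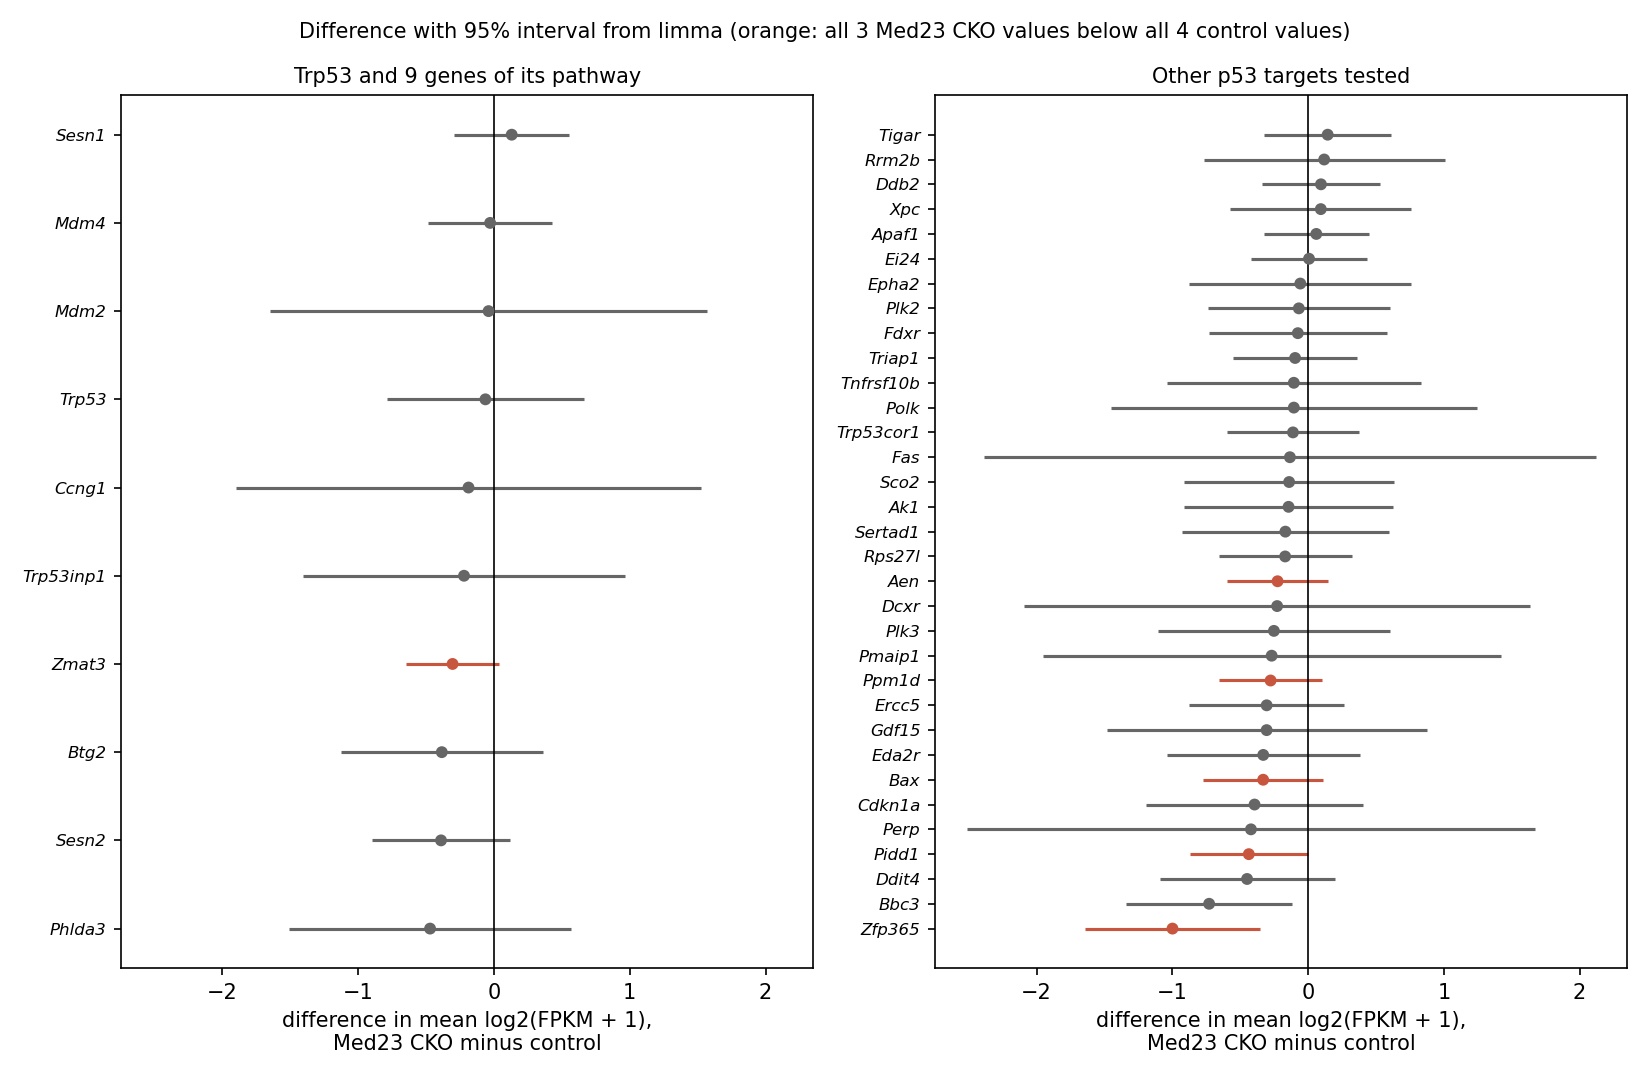
Difference in mean log2(FPKM + 1), Med23 CKO minus control (horizontal axes), with 95% intervals from limma for the 10 genes (left) and 33 other p53 targets (right). Of the 10 genes 9 lie left of 0 and every interval includes 0; orange marks genes with no overlap between the groups and Med23 CKO lower, 1 on the left and 5 on the right.

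Several of these genes varied widely between libraries of the same group. KO_117 was the lowest library for 7 of the 10 genes (Mdm2, Ccng1, Sesn2, Btg2, Trp53inp1, Zmat3 and Phlda3), against 20.6% of all genes tested, and WT_116 was the highest for 6, against 15.4%. The median range of all genes tested was 2.02-fold over the libraries. Mdm2 (5.49-fold), Phlda3 (3.95-fold) and Trp53inp1 (3.83-fold) ranged more widely than 90.2%, 83.9% and 82.6% of genes, while Zmat3, Mdm4 and Sesn1 ranged more widely than 16.7%, 14.8% and 10.97%. The order of mean FPKM over the 7 libraries, a scale that accounts for gene length, ran from Ccng1 (206 ± 119, SD), Phlda3 (131 ± 53.7) and Mdm2 (109 ± 62.8) through Trp53inp1 (66.6 ± 30.8) and Trp53 (61.5 ± 18.04) to Sesn2 (42.7 ± 9.45), Zmat3 (37.0 ± 4.81), Mdm4 (25.4 ± 3.64), Btg2 (17.7 ± 5.46) and Sesn1 (14.97 ± 1.95). Neighbours in this order lay within the larger SD of the pair, except Trp53 and Sesn2, Zmat3 and Mdm4, and Mdm4 and Btg2.

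Pearson's r with the level of Trp53 mRNA was negative for all 9 other genes, and close to 0 for Mdm4 (-0.03). Over the 7 libraries, Trp53inp1 ran opposite to Trp53 (Pearson r = -0.96, exact permutation p = 0.00198, adjusted over the 9 genes compared with Trp53 0.0179; Spearman rho = -0.93, exact permutation p = 0.00675, adjusted 0.0554). Ccng1 did so too, with r = -0.91 (exact permutation p = 0.00496, adjusted 0.0223) and rho = -0.89 (exact permutation p = 0.0123, adjusted 0.0554). Both held without the libraries farthest from the median of Trp53, WT_220 and KO_218, with r = -0.99 and -0.95. Mdm2 gave r = -0.85 (exact permutation p = 0.0248, adjusted 0.0744) and rho = -0.71 (exact permutation p = 0.0881, adjusted 0.264), and r = -0.92 without the same libraries. The adjusted p of the other 6 genes was 0.453 or above for r. Without WT_220 and KO_218, several of these also had a strongly negative r. It was -0.88 for Sesn2, -0.88 for Btg2, -0.84 for Zmat3 and -0.90 for Phlda3, against -0.01 for Sesn1 and 0.41 for Mdm4. Over all 7 libraries, 4.46% of all genes tested had an r of -0.9 or below with Trp53.

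Of the 10 genes, Mdm2 alone passed adjustment in its relation to the cell cycle genes, by r and not by rho. Mdm2 fell as their mean rose, with r = -0.92 (exact permutation p = 0.00437, adjusted over 10 genes 0.0437), rho = -0.93 (exact permutation p = 0.00675, adjusted 0.0615) and r = -0.96 without KO_214 and KO_117, the libraries farthest from the median. Ccng1 gave r = -0.84 (exact permutation p = 0.0214, adjusted 0.0714), rho = -0.89 (exact permutation p = 0.0123, adjusted 0.0615) and r = -0.96 without them. Phlda3 gave r = -0.82 (exact permutation p = 0.0198, adjusted 0.0714), rho = -0.79 (exact permutation p = 0.048, adjusted 0.12) and r = -0.72 without them. Trp53 pointed the other way at r = 0.65 (exact permutation p = 0.121, adjusted 0.173) and rho = 0.71 (exact permutation p = 0.0881, adjusted 0.176), which did not pass, and Zmat3 gave r = -0.31 (exact permutation p = 0.506, adjusted 0.562) and rho = -0.32 (exact permutation p = 0.498, adjusted 0.553). The other 5 genes, Mdm4, Sesn1, Sesn2, Btg2 and Trp53inp1, gave r = 0.69, -0.03, -0.59, -0.68 and -0.66 and rho = 0.54, 0.07, -0.64, -0.57 and -0.79, with adjusted exact permutation p of 0.173 or above for r and 0.12 or above for rho. Without KO_214 and KO_117, r was 0.21 for Mdm4, -0.06 for Sesn1, -0.33 for Sesn2, -0.44 for Btg2 and -0.93 for Trp53inp1. It was then 0.84 for Trp53 and -0.30 for Zmat3. Over all libraries, 8.56% of all genes tested outside the list had an r of -0.9 or below with this mean. Mdm2 thus shared its course with many genes. The labels name no batch, and the effect of depth, which is unknown, was not tested. A covariate for the leading digit of each mouse's number, tried in case it marks one, turned the direction of none of the 10 genes, and their median difference was then -0.18.

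**Figure D3:**
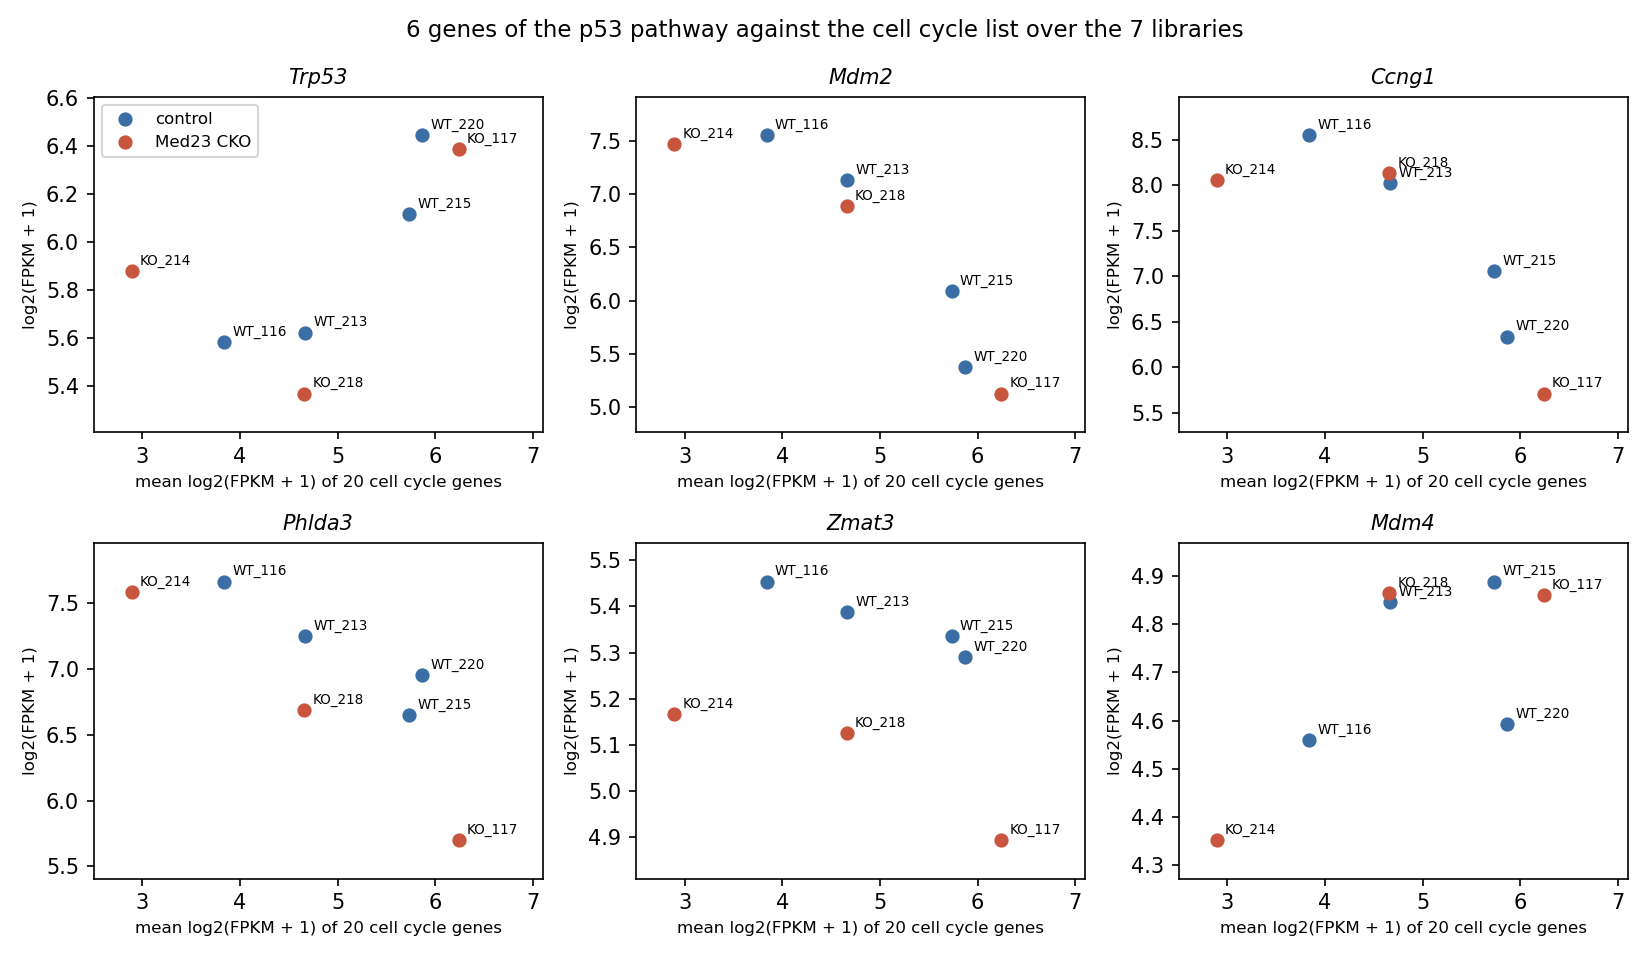
log2(FPKM + 1) of 6 genes (vertical axes, not from 0) against the mean log2(FPKM + 1) of 20 cell cycle genes (horizontal axes), 1 point per library, control in blue and Med23 CKO in red. Mdm2 (r = -0.92) and Ccng1 (r = -0.84) fall from KO_214 and WT_116 on the left to KO_117 on the right, while the red points of Zmat3 lie below the blue ones along the whole axis.

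With the cell cycle mean as a covariate, an alternative chosen after the data were seen, limma called 4 of the 10 lower in Med23 CKO when p was not adjusted and none after adjustment. These were Sesn2 at -0.48 (limma adjusted p = 0.736), Btg2 at -0.52 (adjusted p = 0.999), Zmat3 at -0.34 (adjusted p = 0.981) and Phlda3 at -0.69 (adjusted p = 0.559). The same fit called 197 of all genes higher and 434 lower at that threshold, more than the fit without the covariate, and 3 of the 10 genes had a higher mean.

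Among themselves, the 10 genes did not form 1 block. Of their 45 pairs, 26 had a positive r over the 7 libraries and 3 reached 0.9, namely Mdm2 with Ccng1 (r = 0.976), Ccng1 with Trp53inp1 (r = 0.956) and Sesn2 with Phlda3 (r = 0.926). These values describe 7 libraries that differ in cell cycle and cell type markers, and no p is given for them. The genes outside the 10 most like Mdm2 were Smad3 (r = 0.999), Ddt (r = 0.998) and Fas (r = 0.998), of which Fas, a death receptor, is itself a known p53 target. Fas read 4.70, 23.7, 17.2 and 2.13 FPKM in WT_215, WT_116, WT_213 and WT_220, against 1.28, 20.5 and 12.1 FPKM in KO_117, KO_214 and KO_218, the same order of libraries as Mdm2. Those most like Trp53 were Get4 (r = 0.997), Armc5 (r = 0.996) and Ctdnep1 (r = 0.996).

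Most genes of the wider set of p53 targets also had a lower mean log2 level in Med23 CKO, and none passed adjustment. Of 34 listed targets 33 were tested, and 27 had a lower and 6 a higher mean log2 level in Med23 CKO, with a median difference of -0.17, where 56.2% of all genes tested were lower and the median was -0.03. Without KO_117 the count with a lower mean was 15 and the median was 0.03. At an unadjusted p under 0.05, limma called 3 of the 33 lower and 0 higher, beside 0.996% and 0.502% of all genes. Of these, Zfp365, a factor for genome stability, read 42.2, 53.8, 55.2 and 58.1 FPKM in WT_215, WT_116, WT_213 and WT_220, against 15.9, 32.9 and 31.6 FPKM in KO_117, KO_214 and KO_218, a separation of the groups with a difference of -0.998 (SE 0.28, limma unadjusted p = 0.00771, adjusted p = 0.9999, exact permutation p = 0.0286).

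Bbc3, which encodes the cell death protein PUMA, read 14.7, 17.3, 16.7 and 23.6 FPKM in WT_215, WT_116, WT_213 and WT_220, against 7.90, 14.96 and 9.29 FPKM in KO_117, KO_214 and KO_218, with KO_214 above WT_215 (difference -0.73, SE 0.26, limma p = 0.0257, exact permutation p = 0.0571). Its unadjusted call was lost without WT_220 (-0.60), KO_117 (-0.55) or KO_218 (-0.66). Pidd1, a death domain protein, averaged 11.3 ± 1.69 FPKM in Med23 CKO (SD, n = 3) and 15.6 ± 2.05 FPKM in control (SD, n = 4). Its groups were separate, with a difference of -0.44 (SE 0.19, limma p = 0.0487, exact permutation p = 0.0286). The unadjusted call of Pidd1 was lost when WT_215, WT_116, WT_213, WT_220, KO_214 or KO_218 was left out. It was also lost under a covariate for the leading digit of each mouse's number, with libraries centred on their medians, and in limma without trend. Separate groups were also seen for Bax, the pore-forming cell death protein (-0.33, exact permutation p = 0.0571), the nuclease Aen (-0.22, exact permutation p = 0.0571) and Ppm1d, a phosphatase that dampens the p53 response (-0.28, exact permutation p = 0.0286), which are named after their values were seen. That makes 5 of 33 targets below all controls beside 1.53% of all genes, and no test was made of this count. Cdkn1a, the p21 cell cycle inhibitor and best known p53 target, read 324, 520, 397 and 374 FPKM in WT_215, WT_116, WT_213 and WT_220, against 178, 476 and 327 FPKM in KO_117, KO_214 and KO_218, with overlapping groups (difference -0.39, SE 0.34, exact permutation p = 0.371). Ddit4, an mTORC1 inhibitor, differed by -0.45 (SE 0.28, exact permutation p = 0.257).

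The course of Mdm2 over the libraries was shared, at an r of at least 0.9, by 10 of the 33 targets and by 12.3% of all genes. Fdxr, a mitochondrial reductase, was the 1 target of 33 with an r of -0.9 or below with Mdm2, beside 10.8% of all genes. With Trp53, 2 of the 33 targets (Fdxr and Sco2) had an r of at least 0.9, beside 9.45% of all genes, and 3 (Pmaip1, Rrm2b and Polk) had an r of -0.9 or below, beside 4.46%. These genes were named after their values were seen.

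**Figure D4:**
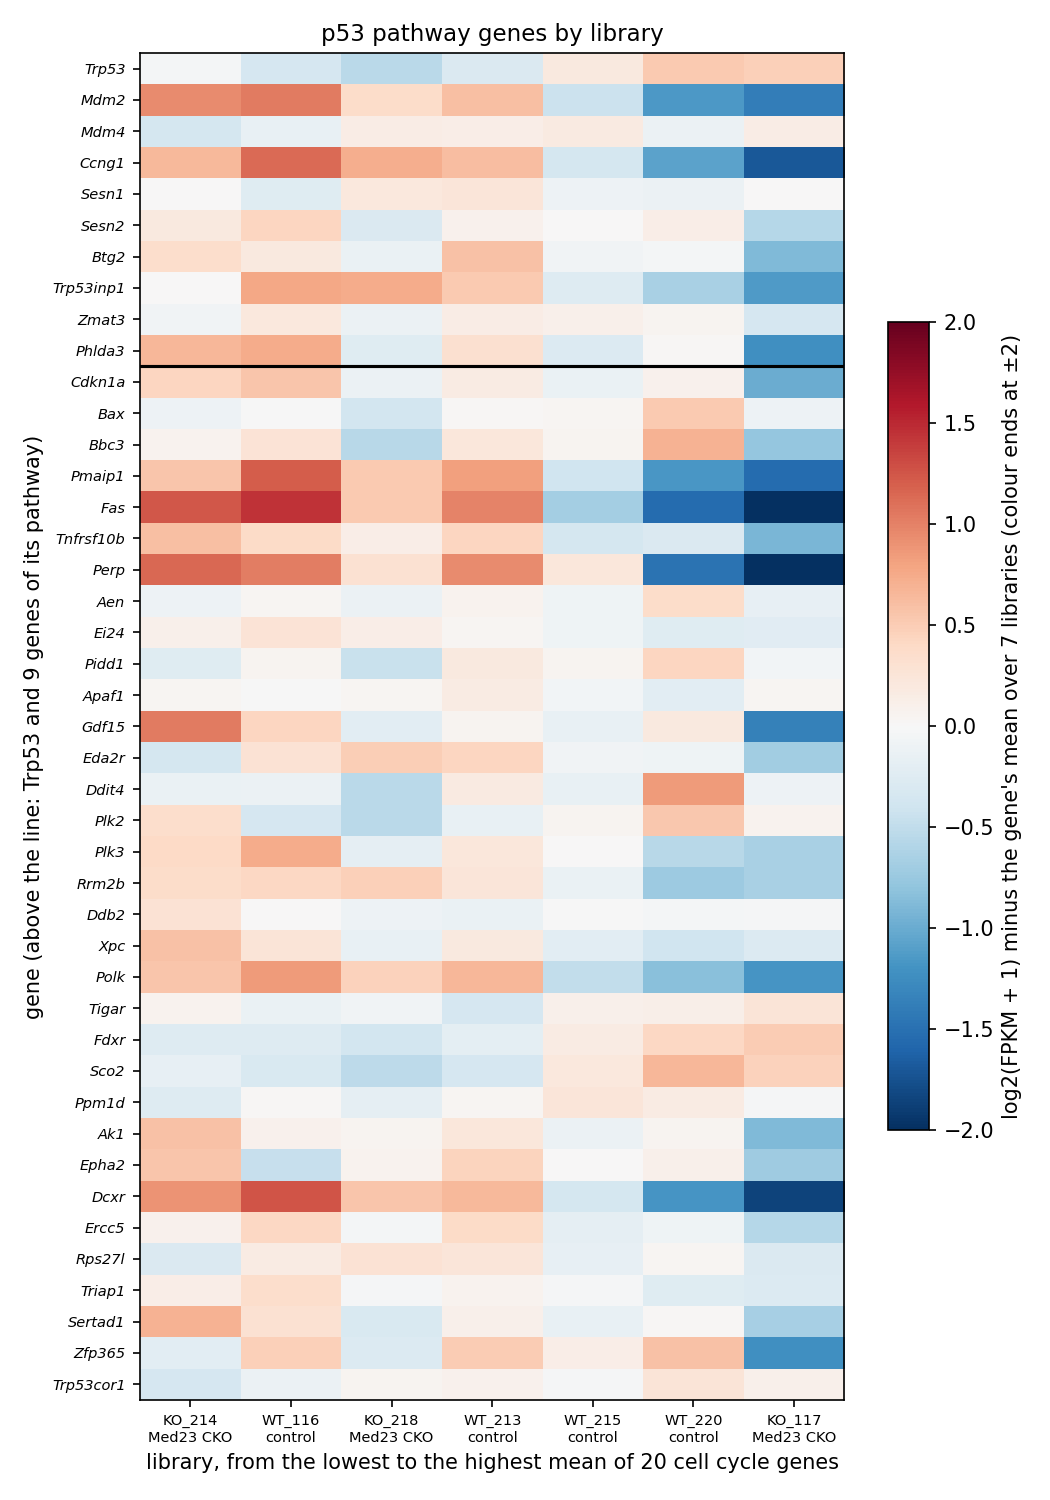
Heat map of log2(FPKM + 1) minus each gene's mean (color scale from -2 to 2) for the 10 genes (above the line) and 33 other p53 targets, with the 7 libraries as columns from the lowest to the highest cell cycle mean. Mdm2, Ccng1 and Fas run from red in KO_214 and WT_116 to blue in WT_220 and KO_117, whereas Trp53 is bluest in KO_218 and reddest in WT_220 and KO_117.

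No difference was detected in the genes that control p53. Of 17 regulators tested, 9 had a higher and 8 a lower mean log2 level in Med23 CKO, the median difference was 0.00 and none passed an unadjusted p of 0.05. Cdkn2a, whose locus encodes p16 and the Mdm2 inhibitor p19Arf without these being separated in FPKM, read 41.7, 10.8, 56.4 and 114 FPKM in WT_215, WT_116, WT_213 and WT_220, against 45.2, 11.1 and 21.4 FPKM in KO_117, KO_214 and KO_218. The 3 Med23 CKO values lay within the range of the control values, with a difference of -0.88 (SE 0.78, 95% interval -2.69 to 0.93, exact permutation p = 0.429). This difference depended on single libraries. It was -1.50 without WT_116, where it passed an unadjusted limma p of 0.05, -1.37 without KO_117, -0.40 without WT_220 and -0.41 without KO_214. The damage kinase Chek1 differed by -0.31 (SE 0.45, exact permutation p = 0.743) and the p53-binding repair factor Trp53bp1 by -0.25 (SE 0.20, exact permutation p = 0.2). Of the p53 relatives, Trp73 was near the filter and differed by 0.16 (SE 0.41, exact permutation p = 0.771), and Trp63 was listed at 0 in some libraries and was not tested.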

How the data were processed

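RNA of primary neurospheres was sequenced from 4 control and 3 Med23 CKO mice, 1 library per mouse, grouped by their labels. The authors prepared libraries with a NEBNext Ultra kit that does not mark strand, removed adapters, aligned reads to mm10 with Tophat and deposited FPKM per gene from Cuffdiff. The deposited table also holds group means and the authors' own fold changes and p-values, none of which was used. The study gives fewer control mice for this experiment than the table holds, and all 7 libraries were kept.

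Values were analysed as log2(FPKM + 1) in the 14151 genes that reached a mean of 0.5 FPKM, so fold changes of low genes are understated. The groups were compared with limma 3.58.1 (lmFit, eBayes with trend, R 4.3.3) with two-sided p-values and Benjamini-Hochberg adjustment over all genes tested, and the script was tested on simulated data. Single values and correlations used exact permutation in Python 3.11.15 (35 assignments of libraries, 5040 orders). The 10 genes and all gene lists were chosen with earlier results of these data known. Named were all 10 genes and Med23; of each p53 list those at an unadjusted p under 0.05, the 3 largest differences, Cdkn1a and Cdkn2a; the 2 highest genes of the cell cycle and immediate early lists; and the 3 genes most like Trp53 and Mdm2. Bax, Aen, Ppm1d, Fdxr, Sco2, Pmaip1, Rrm2b, Polk and Nr4a1 fall outside this rule and were named after their values were seen. The same holds for the markers Cd68, Cx3cr1, P2ry12, Hes5, Gfap, Vim and Fabp7. Coordinates are of RefSeq on GRCm38.p6. In GENCODE M21 no exon of another gene overlaps those of the 10 genes, but pseudogenes named after Trp53 and Mdm4 exist and could share their reads. Depth is unknown, and the number of libraries limits precision.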

Additional observations from a re-analysis of the deposited data

How the results depend on the processing

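No paired analysis was made. The methods describe controls as littermates, but the labels used here give no litter by which mice could be paired. Of the 10 genes, Sesn1, Sesn2, Btg2 and Zmat3 kept their direction under all 17 alternatives. When single libraries were left out, differences ran from -0.32 to 0.19 for Trp53, -0.53 to 0.64 for Mdm2, -0.11 to 0.14 for Mdm4, -0.61 to 0.61 for Ccng1, -0.66 to 0.28 for Trp53inp1 and -0.93 to 0.0068 for Phlda3. Among other genes they ran from -0.62 to 0.29 for Chek1, -0.10 to 0.54 for Trp73, -1.37 to 0.24 for Rrm2 and -1.28 to 0.72 for Ccnb1, and the median of the other p53 targets from -0.37 to 0.035. With array weights, whose estimate stopped before it converged, Mdm2 was at 0.14, Mdm4 at 0.018, Ccng1 at 0.32, Trp53inp1 at 0.32 and Chek1 at 0.078. With the cell cycle mean as a covariate, chosen after the data were seen, Trp53 was at 0.034, Mdm4 at 0.024, Trp73 at -0.026 and Ccnb1 at 0.018. At an unadjusted p under 0.05, all genes gave 195 higher and 273 lower without a filter on low values, 193 and 887 with array weights, 197 and 434 with the covariate, and 44 to 362 and 71 to 410 with a library left out. The p53 genes lower at that threshold were 1, 1 and 4 of 10 under the first 3 settings and 0 to 2 with a library left out. Those with a higher mean were 5 with array weights, 3 with the covariate and 2 to 5 with a library left out. After adjustment, 0 to 1 genes were higher with a library left out. The median of the 10 genes stayed negative, from -0.44 to -0.02 with a library left out. The causes were not tested.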

Other observations

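Beside the p53 genes, 10 immediate early genes, which growth factors and neuronal activity induce within minutes, all had a lower mean log2(FPKM + 1) in Med23 CKO, the scale of all means compared here, where 56.2% of all genes tested did. Their median difference was -0.91, and 2 of the 10, Egr1 and Nr4a1, were lower at an unadjusted limma p under 0.05, beside 0.996% of all genes. Those with the highest levels were Egr1, at 146.5, 23.7, 37.9 and 160 FPKM in WT_215, WT_116, WT_213 and WT_220, against 4.76, 36.9 and 14.5 FPKM in KO_117, KO_214 and KO_218 (difference -2.20, SE 0.86, exact permutation p = 0.114, limma adjusted p = 0.9999), and Jun (-0.42, SE 0.38, exact permutation p = 0.429). The unadjusted call of Egr1 was lost without WT_215 (-1.84), WT_220 (-1.80), KO_117 (-1.51) or KO_218 (-2.23), and without a filter on low values. Of 20 cell cycle genes, 19 had a lower mean log2 level and 0 passed an unadjusted p of 0.05. Rrm2, the small subunit of ribonucleotide reductase, differed by -0.60 (SE 0.75, exact permutation p = 0.571) and the mitotic cyclin Ccnb1 by -0.46 (SE 0.95, exact permutation p = 0.743), with KO_214 the lowest library for both. Without KO_214 these differences were 0.24 and 0.72.

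Markers of other cell types also varied between libraries, with 0 genes at an unadjusted limma p under 0.05 in each list and no marker at 0 in any library. All 8 endothelial markers had a higher mean in Med23 CKO (summed 9.85 to 56.2 FPKM in control, 7.25 to 110 in Med23 CKO). So did all 5 mural and fibroblast markers (7.76 to 78.1 and 5.42 to 254.6 FPKM), and 6196 of all 14151 genes tested. In both sums KO_214 was the highest and KO_117 the lowest of the libraries. The mean log2(FPKM + 1) of the endothelial list was 3.57 in KO_214, 2.10 in KO_218 and 0.84 in KO_117. Of 7 markers of the oligodendrocyte lineage 6 had a lower mean (1084 to 4204 and 649 to 2568 FPKM), of 6 neuronal markers 4 did (108 to 147 and 68.1 to 188 FPKM), and of 8 markers of neural stem cells and astrocytes 6 did.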
